A study of Schmidtea mediterranea with 171 samples.

Results

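Planarian neoblasts carry *piwi-1*, which encodes a protein of the Argonaute family and marks the stem cells of the flatworm, while *pc2* encodes a prohormone convertase of the nervous system. Of the 96 single cells sorted through the X1 gate from heads of *Schmidtea mediterranea*, 69 were chosen by *piwi-1* (SmedASXL_008653) at 5 CPM or more, where CPM is the read count scaled by all reads of the cell assigned to a transcript. These cells were divided by the measured level of *pc2* (SmedASXL_009486) into 28 pc2+ cells, at 1 CPM or more, and 26 pc2-zero cells, with no read of the transcript. The remaining 15 cells lay between 0 and 1 CPM of *pc2* and were left out, so that the comparison holds 54 cells of the 168 single cells and 171 samples of the series. The comparison asks whether neoblasts that carry a neural transcript differ in other transcripts from neoblasts that do not.

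All cells came from wild-type worms of the clonal asexual strain CIW4, fed on liver and starved for 1 week. The sorted tissue was head, labelled as amputation fragment, and 30 animals were pooled for it. The X1 gate takes cells with a high DNA content under Hoechst staining that irradiation removes, and the X2 gate holds mainly their early progeny. Each cell was amplified by SmartSeq2 with no molecular identifiers, and reads are therefore amplified copies. The labels give neither the animal nor the sort of a cell, so that the 54 cells were treated as parts of 1 sample and not as replicates, and no test was made between the sides. Values are given per cell or as mean with SD over cells, and shares of cells with exact (Clopper-Pearson) 95% confidence intervals (CI), which cover counting error only. By these intervals, a count of 0 cells allows a share of up to 12.3% of the 28 pc2+ cells and 13.2% of the 26 pc2-zero cells.

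Neoblasts are the dividing cells of the adult planarian and replace every tissue, including the brain, which is renewed throughout life. *pc2* cuts neuropeptide precursors into their active forms and is used as a marker of most planarian neurons. A neoblast with neural transcripts may be specialized toward a neuron, and the study named a group of X1 cells with such transcripts νNeoblasts and the transcripts enriched in them ν-genes. Other classes of neoblasts are the σ class, which is broad and responds to injury, and the ζ class, which precedes the epidermis.

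The genes on which the comparison turned are shown by the start of their longest open reading frame, as read from the listed part of each transcript, with the start codon in capitals. *piwi-1* is shown because it chose the cells, and *znf-91*, *ski-3* and *ston-2* because their means differed most among the listed regulators and ν-genes that were detected in at least 5 of the 54 cells.
piwi-1: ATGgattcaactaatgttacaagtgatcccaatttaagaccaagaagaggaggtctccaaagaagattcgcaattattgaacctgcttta
znf-91: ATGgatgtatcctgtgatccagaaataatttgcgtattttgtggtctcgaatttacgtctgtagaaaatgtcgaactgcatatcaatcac
ski-3: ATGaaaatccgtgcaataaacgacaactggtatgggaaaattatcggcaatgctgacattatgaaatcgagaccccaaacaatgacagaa
ston-2: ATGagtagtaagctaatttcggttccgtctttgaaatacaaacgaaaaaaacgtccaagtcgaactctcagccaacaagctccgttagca
Each line gives 90 bases from the transcript of that name (SmedASXL_008653, SmedASXL_011708, SmedASXL_006842 and SmedASXL_013691), and their chromosomal positions were not analysed here.

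The genes that set the rule are described here without a test. *piwi-1* averaged 568 CPM in pc2+ cells (SD 567, lowest 5.18, median 429, highest 2891) and 576 CPM in pc2-zero cells (SD 721, lowest 12.7, median 360, highest 3542), so the sides overlapped over nearly their whole range. *pc2* averaged 99.0 CPM in the 28 pc2+ cells (SD 222, median 24.0, range 1.02 to 995), with 9 cells under 10 CPM and 19 cells at or above. Among the pc2+ cells the level of *pc2* did not rank with that of *piwi-1* (Spearman's rho 0.15 over 28 cells of 1 gate, a description). At the edge of the rule, the 3 lowest cells inside had *piwi-1* at 5.18, 12.7 and 25.8 CPM and the 3 highest outside at 4.50, 3.88 and 3.78 CPM. For *pc2*, the 3 lowest pc2+ cells were at 1.02, 1.5 and 1.8 CPM and the 3 highest cells left out at 0.704, 0.661 and 0.653 CPM. These values rest on 6, 15 and 2 reads and on 3, 4 and 3 reads, so the side of a cell near the limit depends on its depth. The 15 cells left out averaged 5.14 M assigned reads, beside 3.83 M in pc2+ and 3.82 M in pc2-zero cells.

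**Figure D1:**
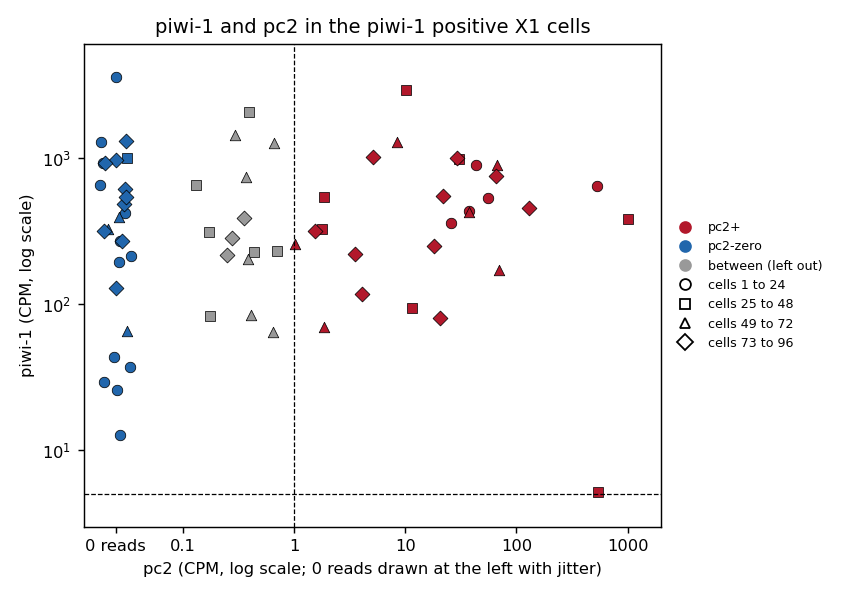
*pc2* (horizontal, CPM on a log scale, cells with 0 reads at the left) and *piwi-1* (vertical, CPM on a log scale) in the 69 *piwi-1* positive X1 cells, each point 1 cell and each shape a range of 24 cell numbers, with dashed lines at the thresholds of the rule. The pc2+ cell at 5.18 CPM of *piwi-1* is cell 37, and the pc2+ cell furthest to the right, at 995 CPM of *pc2*, is cell 44.

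The sides were not alike in where their cells came from. Assigned reads per cell had a median of 2.8 M in pc2+ cells (0.988 to 20.2 M) and 3.18 M in pc2-zero cells (1.2 to 8.95 M), and 20.6% and 22.5% of the reads on average were assigned to no transcript. By the number in the cell's label, the ranges 1 to 24, 25 to 48, 49 to 72 and 73 to 96 held 5, 7, 6 and 10 pc2+ cells but 13, 1, 3 and 9 pc2-zero cells. The labels do not say what the number stands for.

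Cells with low numbers had reads from fewer transcripts. Over all cells, 5677 transcripts were read per pc2+ cell (SD 1833) and 4533 per pc2-zero cell (SD 2034), and after thinning each cell to 500000 assigned reads the means were 3691 (SD 730) and 3027 (SD 1164). Among cells 1 to 24, the means with all reads were 4202 and 3006, and among cells 49 to 72 they were 6560 and 5063. Among cells 73 to 96, they were 6621 and 6525, and after thinning the pc2-zero cells had the higher mean (4121 against 3877). Without cells 1 to 24, the difference between the sides over the other cells pooled was -61.3 transcripts, compared with 1145 over all cells. Values within ranges are given beside the results below, averaged over the 3 ranges with at least 3 cells on each side. Cells 25 to 48, with 7 pc2+ cells but 1 pc2-zero cell, do not enter that average. Cells 37 and 44 are among them, so a change within ranges also holds the loss of these cells. The part of the cell number was not tested.

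**Figure D2:**
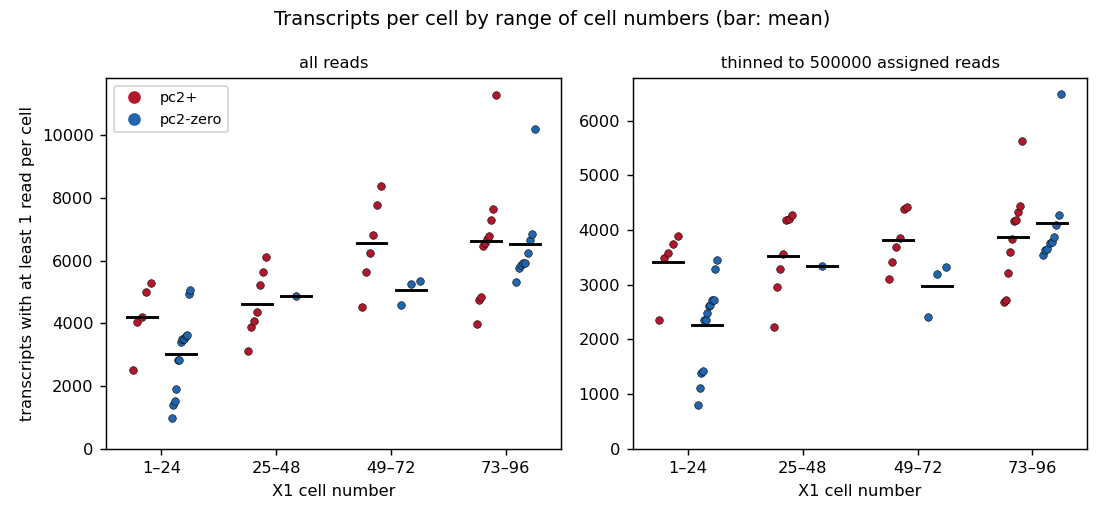
Transcripts with at least 1 read per cell (vertical) by range of X1 cell numbers (horizontal), with all reads at the left and after thinning to 500000 assigned reads at the right; points are cells and bars are means. The 13 pc2-zero cells numbered 1 to 24 reach down to 978 transcripts, and the sides lie at the same height among cells 73 to 96.

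Apart from *piwi-1* and *pc2*, 11520 transcripts were detected, at 1 CPM or more, in at least 5 of the 54 cells. Of these, 246 (2.14%) were detected in a share of pc2+ cells at least 25 percentage points above that of pc2-zero cells, and 37 (0.321%) in a share at least 25 points below. This balance differed with the cells used. The counts were 335 and 502 of 8757 transcripts tested without cells 1 to 24. They were 579 and 689 of 4693 in cells 73 to 96 only, with 10 and 9 cells on the sides. They were 829 and 45 of 6667 without cells 73 to 96, and 543 and 135 of 11520 within ranges. The part of the cell numbers in this balance was not tested. By level, 725 transcripts (6.29%) had a mean at least 4-fold higher in pc2+ cells and 474 (4.11%) a mean at least 4-fold higher in pc2-zero cells, both as the ratio of mean CPM plus 1. The sides also differed over the transcripts as a whole: 61.8% were detected in a higher share of pc2+ cells and 37.7% in a lower share, with a median difference of 3.02 points. Among cells 73 to 96 alone, where the sides had similar numbers of transcripts, the median difference was -1.11 points.

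Pan-neural and brain genes other than *pc2* differed by at most 13.5 points in share between the sides, and the higher means of *synapsin* and *chat* in pc2+ cells rested on 1 or 2 cells. Of the 5 listed genes, all were tested and none passed the 25-point limit in either direction. A mean at least 4-fold higher was found for 2 in pc2+ cells (6.29% of all transcripts) and for 1 in pc2-zero cells (4.11%). The median difference in share over the 5 genes was 8.79 points, beside 3.02 over all transcripts.

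*synapsin* (SmedASXL_014276), which encodes a protein of synaptic vesicles, was detected in 5 of 28 pc2+ cells (17.9%, CI 6.06% to 36.9%) and in 2 of 26 pc2-zero cells (7.69%, 0.946% to 25.1%). The 5 pc2+ cells were at 952, 231, 50.6, 13.7 and 1.01 CPM and the 2 pc2-zero cells at 14.3 and 1.6 CPM. The means were 44.7 CPM (SD 183) and 0.614 CPM (SD 2.8), a log2 ratio of 4.82. The 2 highest cells, 44 and 37, carried 94.5% of the *synapsin* CPM of the pc2+ side, and without them the mean was 2.6 CPM and the log2 ratio 1.2. Within ranges the log2 ratio was 0.80, and the difference in share turned from 10.2 to -4.44 points. However, 3 of the 5 pc2+ cells with *synapsin* are among cells 25 to 48, which these values leave out.

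*chat* (SmedASXL_012349), whose enzyme makes acetylcholine in cholinergic neurons, was found in as many pc2+ as pc2-zero cells, 11 of 28 (39.3%, CI 21.5% to 59.4%) and 11 of 26 (42.3%, 23.4% to 63.1%). In cell 44 it reached 1228 CPM, and the next highest pc2+ cell had 5.88 CPM. The pc2-zero cells reached 42.0 CPM. The mean of 44.9 CPM in pc2+ cells (SD 232) against 4.47 CPM in pc2-zero cells (SD 9.04) was therefore set by 1 cell: the log2 ratio was 3.07 with cell 44 and -0.97 with the highest cell of each side left out. Most cells with *chat* in either side were at a few CPM.

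The other brain genes are transcription factors. *castor* (SmedASXL_016911), a zinc finger gene known from fly neuroblasts, was detected in 10 pc2+ cells (35.7%, CI 18.6% to 55.9%) and 7 pc2-zero cells (26.9%, 11.6% to 47.8%), with means of 26.1 CPM (SD 49.6, highest 172) and 6.27 CPM (SD 14.3, highest 52.4). Unlike *synapsin* and *chat*, its pc2+ mean was spread over several cells, with 8 pc2+ cells and 4 pc2-zero cells at 10 CPM or more, and its log2 ratio of 1.9 was 1.6 within ranges. *egr-4* (SmedASXL_009448), of the early growth response family, was detected in 7 and 3 cells, with means of 20.1 CPM (SD 61.8) and 17.2 CPM (SD 60.4) and a log2 ratio of 0.22 that was -1.2 within ranges. *nkx2.4* (SmedASXL_011486), a homeobox gene, was detected in 5 and 4 cells and its mean was lower in pc2+ cells, at 3.62 CPM (SD 10.9) against 17.6 CPM (SD 67.3). Of the 4 pc2-zero cells with *nkx2.4*, cell 23 alone had 335 CPM, and without cells 1 to 24 the log2 ratio changed from -2.01 to 0.60.

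Counted per cell, the pc2+ and pc2-zero sides held similar numbers of the 5 neural genes. None of them was detected in 5 of 28 pc2+ cells and in 6 of 26 pc2-zero cells, 1 gene in 12 and 14 cells, 2 genes in 7 and 5 cells, and 3 genes in 4 cells and 1 cell. No cell held 4 or 5 of them. *pc2* therefore occurred in most pc2+ cells with at most 1 other gene of the list, as in the cells without it.

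**Figure D3:**
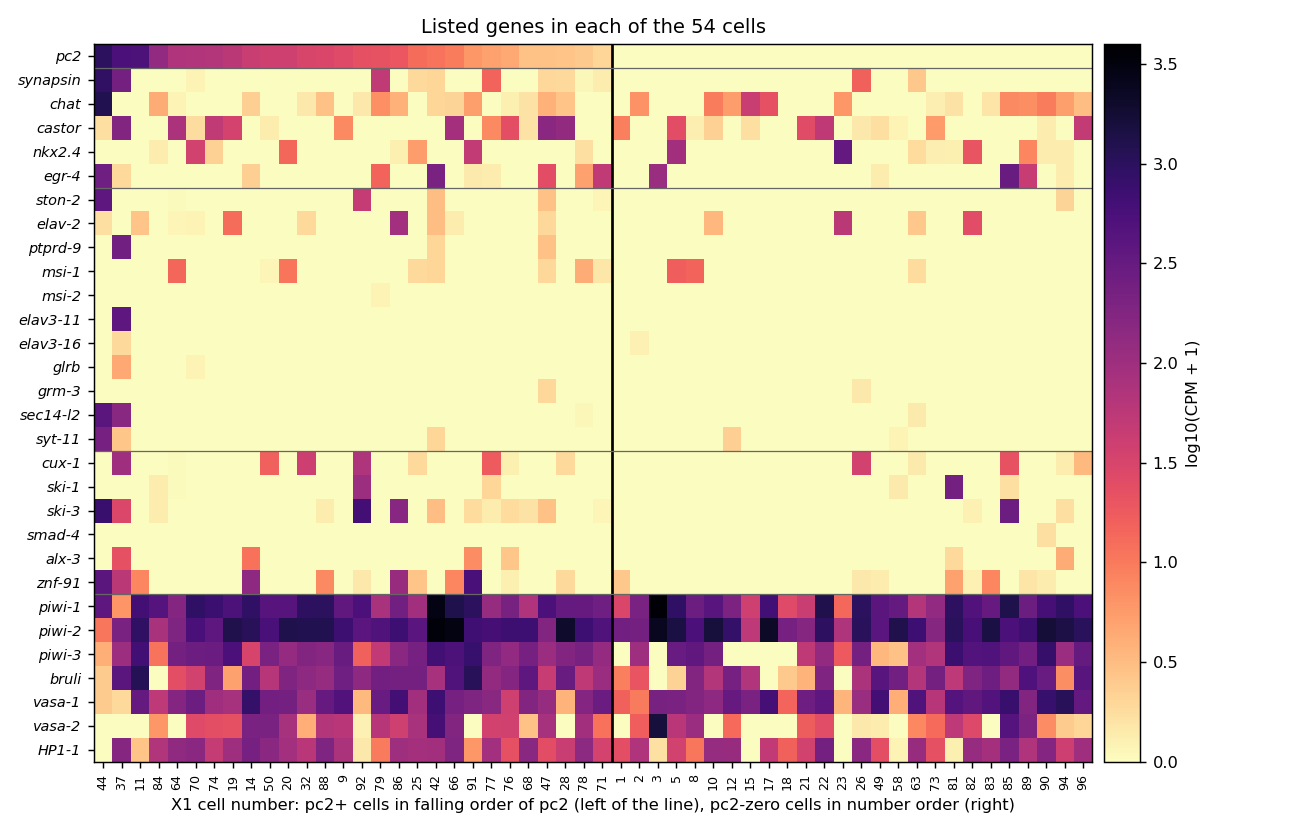
Level of each listed neural gene, ν-gene, transcription factor and stem cell marker (rows, in that order) in each of the 54 cells (columns, by X1 cell number), colored by log10(CPM + 1), with pc2+ cells left of the black line in falling order of *pc2*. Dark entries of neural and ν-genes are gathered in cells 44 and 37 at the far left, and the stem cell markers are dark on both sides.

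Each ν-gene was detected in at most 4 cells of either side. Of the 11 genes, only *ston-2*, *elav-2* and *msi-1* were detected in enough cells to be tested, and none of the 3 passed the 25-point limit. *ston-2* (SmedASXL_013691), related to mammalian stonin, an adaptor of synaptic vesicle endocytosis, was detected in 4 pc2+ cells (14.3%, CI 4.03% to 32.7%) at 365, 44.7, 2.02 and 1.8 CPM and in 1 pc2-zero cell at 1.06 CPM. *elav-2* (SmedASXL_013243), of a family of neuronal RNA-binding proteins, was detected in 4 cells of each side, with means of 3.86 CPM (SD 16.9) and 3.23 CPM (SD 11.8). *msi-1* (SmedASXL_008525), a Musashi RNA-binding gene, was detected in 4 and 2 cells and did not exceed 12.8 CPM in pc2+ cells or 15.5 CPM in pc2-zero cells.

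The remaining ν-genes appeared in at most 3 pc2+ cells and 1 pc2-zero cell each. The receptor phosphatase gene *ptprd-9* (SmedASXL_015370) was found in 3 pc2+ cells at 250, 1.8 and 1.01 CPM and in no pc2-zero cell. The *elav* family gene *elav3-11* (SmedASXL_015547) was found only in cell 37, at 382 CPM. The lipid-transfer gene *sec14-l2* (SmedASXL_013164) was found only in cells 44 and 37, at 397 and 152 CPM. The synaptotagmin gene *syt-11* (SmedASXL_012098) had 223 CPM in cell 44 and at most 1.7 CPM in any other of the 54 cells. The glycine receptor gene *glrb* (SmedASXL_010012) reached 3.45 CPM in cell 37, and *msi-2*, *elav3-16* and *grm-3* did not reach 1 CPM in any cell of either side.

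Counted per cell, 17 of 28 pc2+ cells and 18 of 26 pc2-zero cells had no ν-gene at 1 CPM or more. More than 1 ν-gene was detected in 4 pc2+ cells and in no pc2-zero cell. These 4 were cells 37, 44, 42 and 47, and they differed in level. Cell 37 had 5 ν-genes and cell 44 had 3, of which 3 and 3 were at 10 CPM or more. All 4 are among cells 25 to 48, which the values within ranges leave out. Cell 42 also had 5 and cell 47 had 2, but each of these rested on 1 or 2 reads, since both cells had about 1 M assigned reads. At 10 CPM or more, 22 cells of each side had no ν-gene, and cells 37 and 44 were the 2 cells with more than 1.

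Cells 37 and 44 thus stood apart from the other 26 pc2+ cells. They were also the 2 pc2+ cells in group 3 of the clustering of the 1000 most variable transcripts, which was rebuilt here with the published settings. That group was named νNeoblasts. The clustering used *pc2* and 10 of the 11 ν-genes, so the agreement is a description of the same values. Of the other pc2+ cells, 16 were in group 1, 4 in group 2 and 6 in group 4, and the pc2-zero cells had 15, 3 and 8 cells in these groups and none in group 3. The 2 cells carried 55.4% of the *pc2* CPM of the pc2+ side, 97.8% of that of *chat*, 88.2% of that of *ston-2* and 98.9% of that of *ptprd-9*. Their stem cell genes differed. Cell 44 had *piwi-1* at 379 CPM but *piwi-2* at 9.42 CPM, the lowest value of the 54 cells, *vasa-1* at 1.4 CPM and *HP1-1* at 0 CPM. Cell 37 had *piwi-1* at 5.18 CPM, just above the limit of the rule, with *piwi-2* at 206 CPM and *vasa-1* at 0.863 CPM, but its *bruli* (397 CPM) and *HP1-1* (164 CPM) were above the means of the pc2+ side.

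A high level of *pc2* did not always come with these genes. Cell 11 had *pc2* at 533 CPM, nearly that of cell 37 (540 CPM), with *piwi-1* at 638 CPM, but none of the other 5 neural genes was detected in it, and its only ν-gene was *elav-2* at 1.8 CPM, which is 2 reads. Over the 28 pc2+ cells, Spearman's rho of *pc2* with the listed genes lay between -0.34 for *zfp-1* and 0.40 for SmedASXL_018624 of the X2 lineage list, values that are weak in sparse counts from 1 gate.

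The 6 listed transcription factors are also νNeoblast genes. Of these, *znf-91*, which the study also reports as a σ-class marker of earlier work, had the largest ratio of means between the sides. This held with or without cells 37 and 44. This zinc finger gene (SmedASXL_011708) was detected in 9 of 28 pc2+ cells (32.1%, CI 15.9% to 52.4%), at 566, 387, 137, 116, 55.3, 7.15, 7.01, 6.64 and 1.8 CPM, and in 3 of 26 pc2-zero cells (11.5%, 2.4% to 30.2%), at 7.06, 4.12 and 1.6 CPM. The 5 highest pc2+ cells were thus all above the highest pc2-zero cell, while the intervals of the shares overlapped. The means were 45.9 CPM (SD 129) and 0.567 CPM (SD 1.6), a log2 ratio of 4.90, the largest of the listed genes. The log2 ratio was 4.41 without cells 37 and 44 and 3.52 within ranges. The difference in share was 20.6 points, short of the limit of 25, and 18.9 points within ranges.

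The other regulators were rarer. *ski-3* (SmedASXL_006842), of the Ski family of co-repressors of TGF-β signaling, was detected in 6 pc2+ cells (21.4%, CI 8.30% to 41.0%) at 784, 639, 160, 28.5, 2.02 and 1.8 CPM and in 1 pc2-zero cell (3.85%, 0.0973% to 19.6%) at 275 CPM. Its log2 ratio of 2.3 was 1.5 without cells 37 and 44 and 0.51 within ranges, where 4 of the 6 pc2+ cells, numbered 25 to 48, are left out. *cux-1* (SmedASXL_016134), a homeobox gene, was detected in 5 and 3 cells with means of 8.61 CPM (SD 23.2) and 2.2 CPM (SD 7.79). *alx-3* (SmedASXL_006490), a homeobox gene of the paired type, was detected in 4 cells and 1 cell, with a highest value of 21.6 CPM in cell 37. *ski-1* was detected in 2 cells and 1 cell, and *smad-4*, the shared Smad of the TGF-β pathway, in none. Of the 4 transcription factors tested, all 4 were detected in a larger share of pc2+ cells, with a median difference of 14.0 points that was 7.22 points within ranges. Over all transcripts, 61.8% were detected in a larger share of pc2+ cells, with medians of 3.02 and 3.73 points. Of the 4, 2 had a mean at least 4-fold higher in pc2+ cells (6.29% of all transcripts did).

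**Figure D4:**
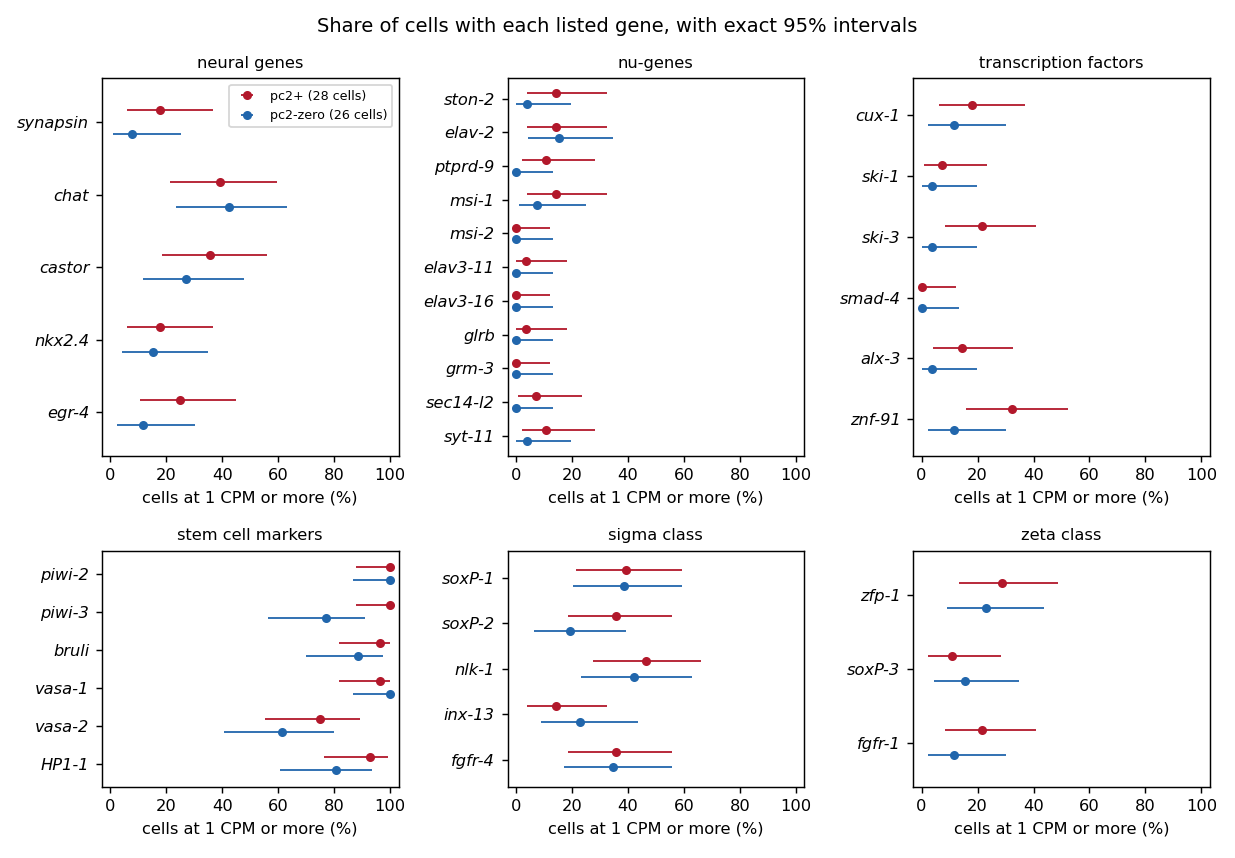
Share of cells with each listed gene at 1 CPM or more (horizontal, percent) in pc2+ and pc2-zero cells, with exact 95% intervals, for 6 lists of genes. The intervals of the sides overlap for every gene shown, and the stem cell markers lie far to the right of the neural genes and ν-genes on both sides.

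Stem cell markers other than *piwi-1* were found on both sides, with means that differed by less than the SD over cells. *piwi-2* (SmedASXL_018810), which like *piwi-1* binds piRNAs, was detected in every cell, with means of 867 CPM (SD 800) and 881 CPM (SD 639). *vasa-1* (SmedASXL_006346), for a DEAD-box RNA helicase, was found in all but 1 of the 28 and in each of the 26 cells, at means of 226 CPM (SD 215) and 318 CPM (SD 279). *bruli* (SmedASXL_009464), an RNA-binding gene needed for neoblast maintenance, was detected in 27 and 23 cells with means of 231 CPM (SD 277) and 140 CPM (SD 149). A related helicase gene, *vasa-2* (SmedASXL_006546) was detected in 21 and 16 cells, and the heterochromatin gene *HP1-1* (SmedASXL_004476) in 26 and 21 cells, with means of 87.4 CPM (SD 65.7) and 69.3 CPM (SD 67.8). None of the 6 log2 ratios reached 1 in size, and their median was 0.13 beside 0.11 over all transcripts. These ratios differed with the cells compared. Within ranges the median was 0.70, with *piwi-3* at 1.3 and *vasa-2* turned from -0.52 to 0.76. Among cells 73 to 96, in contrast, the means were lower in pc2+ cells for *piwi-3* (201 against 404 CPM) and *vasa-1* (196 against 496 CPM).

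The detection of these markers was nonetheless more complete over all pc2+ cells. All 6 were found in 20 of 28 pc2+ cells and in 13 of 26 pc2-zero cells. This was not so in every range of cell numbers. The median number found was 6 in pc2+ and 5 in pc2-zero cells among cells 1 to 24 and among cells 49 to 72. Among cells 73 to 96 the median was 6 on both sides, and the fewest was 4 in pc2+ and 5 in pc2-zero cells. The largest difference in share was that of *piwi-3* (SmedASXL_002725), detected in 28 of 28 pc2+ cells (CI 87.7% to 100%) and 20 of 26 pc2-zero cells (76.9%, 56.4% to 91.0%). All 6 pc2-zero cells without *piwi-3* were among the 13 numbered 1 to 24, where 7 of 13 had it beside 5 of 5 pc2+ cells, and it was found in every cell of both sides among cells 25 to 96. The low number of transcripts in those cells moved with this difference, and its part in it was not tested.

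The listed markers of other neoblast classes and tissues did not separate the sides, with *znf-91* counted among the transcription factors above. Of the 5 σ-class genes, 4 were detected in a larger and 1 in a smaller share of pc2+ cells, and none passed either limit. Their median difference was 1.1 points. Over all transcripts, 61.8% were detected in a larger share of pc2+ cells, with a median of 3.02 points. *soxP-1* (SmedASXL_013552), a Sox-family factor of this class, was detected in 11 and 10 cells, the kinase gene *nlk-1* (SmedASXL_005509) in 13 and 11, *soxP-2* in 10 and 5, the FGF receptor gene *fgfr-4* in 10 and 9, and the innexin gene *inx-13* in 4 and 6. Of the ζ-class genes, *zfp-1* (SmedASXL_001731), a zinc finger gene required for the epidermal lineage, was detected in 8 and 6 cells, *soxP-3* (SmedASXL_004704) in 3 and 4 and *fgfr-1* in 6 and 3. The protonephridial gene *pou2/3* (SmedASXL_008748) was detected in 2 cells of each side, at up to 800 CPM in pc2+ cells and 190 CPM in pc2-zero cells. *alpha-tubulin* (SmedASXL_017404) was detected in 28 and 24 cells, with means of 84.1 CPM (SD 83.7) and 56.6 CPM (SD 58.4).

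Of the 17 listed transcripts of the X2 lineage, 1 passed the 25-point limit, toward pc2+ cells, as did 2.14% of all transcripts. *GT-1* (SmedASXL_078929) was detected in 23 of 28 pc2+ cells (82.1%, CI 63.1% to 93.9%) and in 13 of 26 pc2-zero cells (50.0%, 29.9% to 70.1%). It was found in none of the 18 cells numbered 1 to 24 and in every one of the 36 cells numbered 25 to 96, so the difference within ranges was 0. The number of these transcripts per cell followed the cell number on both sides: it was 4 to 9 in cells 1 to 72, and in cells 73 to 96 it was 9 to 16 in pc2+ cells and 8 to 17 in pc2-zero cells.

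Of the 246 transcripts detected in more pc2+ cells, 242 (98.4%) differed in the same direction within ranges, as did 62.3% of all tested transcripts. Among cells 73 to 96 alone, 218 (88.6%) did, beside 40.8% of all tested transcripts. The members of these ranges belong to the same 54 cells, so these shares describe how evenly the difference was spread and are no independent measure of it. The transcript with the largest difference, SmedASXL_077671, was detected in 20 of 28 pc2+ cells (71.4%, CI 51.3% to 86.8%) and in 5 of 26 pc2-zero cells (19.2%, 6.55% to 39.4%), with a median of 3.48 CPM (highest 339) in pc2+ cells and 0 CPM (highest 21.9) in pc2-zero cells. It was found in no cell numbered 1 to 24, and the difference of 52.2 points was 30.0 points within ranges. SmedASXL_018736 was detected in 24 pc2+ cells (85.7%, 67.3% to 96.0%) and 9 pc2-zero cells (34.6%, 17.2% to 55.7%), with medians of 11.6 and 0 CPM and a difference of 45.3 points within ranges.

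In the opposite direction, SmedASXL_078907 was detected in 9 pc2+ cells (32.1%, CI 15.9% to 52.4%) and 19 pc2-zero cells (73.1%, 52.2% to 88.4%), and SmedASXL_018742 in 3 pc2+ cells (10.7%, 2.3% to 28.2%) and 13 pc2-zero cells (50.0%, 29.9% to 70.1%). Both were low, with medians of 1.6 and 0.992 CPM in pc2-zero cells and no value above 26.1 CPM. No name was paired with these 4 transcripts, and none was among the 1000 transcripts of the clustering.

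The same division by *pc2* was made in cells that the rule left out. Of the 27 X1 cells with *piwi-1* under 5 CPM, 16 had *pc2* at 1 CPM or more and 5 had none. Of the 246 transcripts, 106 (43.1%) were also detected in a larger share of the pc2+ cells there, beside 43.8% of all tested transcripts. Of the 46 X2 cells with *piwi-1* at 5 CPM or more, 8 had *pc2* and 23 had none, and 97 of the 246 (39.4%) differed in the same direction, beside 27.8% of all tested. For the 37 transcripts detected in more pc2-zero cells, the same direction was found for 22 (59.5%) in the X1 cells low in *piwi-1*, beside 41.6% of all tested, and for 20 (54.1%) in X2 cells, beside 42.0%. In the X1 cells low in *piwi-1*, the set of 246 was thus no more often higher with *pc2* than transcripts in general. The pc2-zero side there held only 5 cells. In X2 cells the share of the 246 lay above that of all tested, and that of the 37 did so in both sets of cells. Transcripts with equal shares count here as not in the same direction. In X2 cells only 27.8% of all tested were higher and 42.0% lower with *pc2*, and the median difference of the 246 was 0 points. How many of the 246 went the opposite way is not given, so these shares do not show that the difference was repeated.

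*znf-91* was detected in 11 of 16 pc2+ and 0 of 5 pc2-zero X1 cells low in *piwi-1*. This contrast is no independent measure, since the study listed *znf-91* as enriched in group 3, which held 12 of the 16 cells. In X2 cells *znf-91* was detected in 5 of 8 pc2+ and 3 of 23 pc2-zero cells. Its mean in the X2 cells went the other way, at 48.5 CPM in pc2+ and 72.1 CPM in pc2-zero cells. *chat* was detected in 11 of 16 pc2+ and 1 of 5 pc2-zero X1 cells low in *piwi-1*. In X2 cells *chat* was in 5 of 8 pc2+ and 17 of 23 pc2-zero cells, with means of 85.0 and 18.2 CPM. *synapsin* and *ptprd-9* were each in 10 of 16 pc2+ and 0 of 5 pc2-zero X1 cells low in *piwi-1*, but in 0 of 8 pc2+ X2 cells.

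The pc2+ cells with *piwi-1* at 5 CPM or more held fewer neural transcripts than the 16 pc2+ X1 cells under that limit, a difference described here without a test. *pc2* itself averaged 580 CPM in the latter (SD 817, median 320, range 41.8 to 3120), so that the lowest of the 16 was above the median of the 28. The study picked the ν-genes and the 6 transcription factors as enriched in group 3 of these same data. That group held 12 of the 16 cells and 2 of the 28, so a difference in these genes was partly fixed by how the lists were made. The mean number of ν-genes per cell was 4.88 (SD 2.3) in the 16 cells and 0.786 (SD 1.4) in the 28 cells. At least 2 of them were at 10 CPM or more in 15 of the 16, compared with 2 of the 28. *msi-1* reached 1 CPM in 12 of the 16 (75.0%, CI 47.6% to 92.7%) against 4 of 28 (14.3%, 4.03% to 32.7%), and *ston-2* in 11 of 16 (68.8%, 41.3% to 89.0%) against 4 of 28. *synapsin* was in 10 of 16 cells, *ptprd-9* in 10 and *smad-4* in 7, the last in none of the 28. *castor* went the other way, in 4 of 16 cells (25.0%) against 10 of 28 (35.7%), and *nkx2.4* was in none of the 16. Of the 16 cells, 12 were in group 3 of the clustering, none was numbered 73 to 96, and they had 2.3 M assigned reads (median) and 4716 transcripts (mean). The part of the cell numbers in this comparison was not tested.

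**Figure D5:**
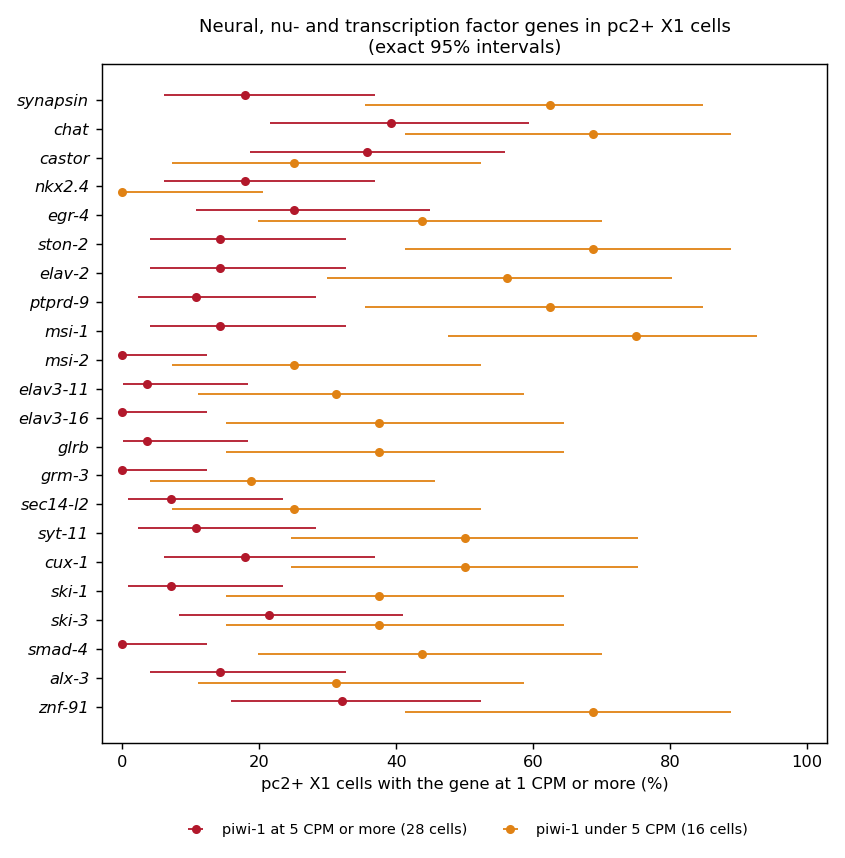
Share of pc2+ X1 cells with each neural gene, ν-gene and transcription factor at 1 CPM or more (horizontal, percent), in cells with *piwi-1* at 5 CPM or more and in cells under 5 CPM, with exact 95% intervals. All genes shown except *castor* and *nkx2.4* lie further to the right in the 16 cells low in *piwi-1*. The ν-genes and transcription factors were picked by the study as enriched in group 3, which held 12 of these 16 cells.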

How the data were processed

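The authors sequenced each library as 50-base single-end reads, trimmed 15 bases from the 3′ end, aligned the reads with Bowtie2 (version 2.2.4 in the submitters' notes) to the SmedASXL transcriptome assembly and deposited raw counts of reads for 67983 transcripts; the entry for reads assigned to no transcript was left out of library sizes. The authors also deposited normalized signal values, made by dividing counts by a DESeq size factor and Winsorizing; the first 1000 of these were used only to rebuild the clustering (ward.D2, 10 groups). The 54 cells had 0.988 to 20.2 M assigned reads (median 3.08 M). CPM, shares and ratios of means (pseudocount 1, transcripts detected in at least 5 of the 54 cells) were computed with Python 3.11.15, numpy 2.4.6, pandas 2.3.3 and scipy 1.17.1, figures with matplotlib 3.10.9, and TMM factors with edgeR 4.0.16 in R 4.3.3. Thinning drew 500000 reads without replacement (seed 1). The share and fold rules were tested on simulated data.

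Cells were grouped by their labels' gate and then by the rule, and no test was made because each gate is 1 sample. Named genes were every gene of the lists with a transcript, plus the 2 unnamed transcripts with the largest difference in share in each direction. For 17 genes the transcript was paired through the values of a supplementary marker table (r at least 0.99 over 49 cells, lowest 0.996, highest of a next transcript 0.885). Base sequences are those of the study's supplementary gene table. The members and lists were chosen with earlier results of these data known. Alternatives changed both floors of the rule, the place of the 15 cells left out, normalization, thinning, detection at 10 CPM, the filter, the pseudocount, the highest cell and the cell numbers. Reads per transcript without strand or molecular identifiers cannot separate near-identical copies, such as members of the *elav* and *piwi* families. Bulk tubes were not used here.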

Additional observations from a re-analysis of the deposited data

How the results depend on the processing

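The 246 transcripts detected in more pc2+ cells became 380 with a *pc2* floor of 10 CPM, 142 with the 15 cells left out added to the pc2-zero side, 96 with detection at 10 CPM, 829 without cells 73 to 96, 543 within ranges and 579 in cells 73 to 96 only, an alternative chosen after seeing the data. The 37 in the other direction became 95 with a *piwi-1* floor of 50 CPM, 68 with the *pc2* floor of 10 CPM, 15 with the cells left out added, 7 with detection at 10 CPM, 502 without cells 1 to 24, 135 within ranges and 689 in cells 73 to 96 only. Without cells 1 to 24 and in cells 73 to 96 only, transcripts past the limit were thus more numerous on the pc2-zero side (502 against 335 and 689 against 579). The 725 transcripts with a 4-fold higher mean in pc2+ cells became 26 with a pseudocount of 10, 1611 with no filter, 228 with a filter of 10 cells and 279 in cells 73 to 96 only. The 474 in the other direction became 39, 1030 and 145 under the same first 3 choices, 262 with the highest cell of each side left out and 302 within ranges. With fewer cells on a side a limit of 25 points is passed by fewer cells; otherwise the cause was not tested. DESeq size factors, TMM and thinning, and leaving out cells 37 and 44 (chosen after seeing the data), kept all 4 counts within 1.5 times.

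The difference in transcripts per cell, 1145, was -61.3 without cells 1 to 24. The log2 ratio of *chat*, 3.07, was -0.97 with the highest cell of each side left out, -0.92 within ranges, -0.55 in cells 73 to 96 and -1.40 without cells 37 and 44. That of *nkx2.4*, -2.01, was 0.60 without cells 1 to 24 and 0.53 in cells 73 to 96. Those of *sec14-l2* and *syt-11*, 4.34 and 3.10, were -0.056 and -0.076 within ranges and -0.016 and -0.024 without cells 37 and 44. Of 660 alternative share differences of listed genes 636 stayed within the spread, 24 moved and none turned after passing the limit, and of 715 alternative log2 ratios 668, 37 and 10 did. No paired analysis was possible because the results come from no test and the cell numbers only name cells. Depth limits the rare genes: in the shallowest cell 1 CPM is 1 read.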
